A study of Mus musculus with 2 samples.

Results

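The transcripts described here are 9 of the 32285 genes listed in both libraries: the bone morphogenetic protein (BMP) ligands Bmp4, Bmp5, Bmp6 and Bmp7, the antagonist Nog, and the inhibitor-of-differentiation genes Id1, Id2, Id3 and Id4. They were picked by gene symbol, and their values were read in every cell class of each library. BMPs are secreted dimers of the TGF-β superfamily that assemble type I and type II receptor kinases on a target cell, which then phosphorylate SMAD1, SMAD5 and SMAD8. Noggin, the product of Nog, binds BMPs outside the cell and keeps them from their receptors. Id genes are among the most widely used readouts of SMAD1/5/8 activity. Their proteins have a helix-loop-helix but no DNA-binding part, so they pair with E proteins such as TCF4 and keep these from acting with lineage factors. In the developing spinal cord, BMPs pattern the dorsal side, favour astrocytes and hold back oligodendrocyte differentiation.

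Single cells of whole spinal cord had been profiled at postnatal day 4 in Taiwanese-type mice with severe spinal muscular atrophy (SMA) and in control (Con) mice. SMA mice were mSmn-/-, hSMN2 2tg/0, and Con mice were heterozygous, mSmn+/-, with the same human transgene, on an FVB background. Per the study's methods, the cords of 3 animals of a litter were pooled into 1 library, the tissue was taken apart with trypsin and collagenase II, and the sexes were not given. With 1 library per group (n = 1) no difference could be set against a spread between animals, so no test was made, and every interval below is a 95% interval of counting error only.

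Several facts of the whole series touch these values. The libraries had 8163 barcodes in common. Of the Con barcodes with at least 5000 unique molecular identifiers (UMIs, each tagging 1 captured RNA molecule), 98.98% were also listed for SMA, so the SMA copies were left out. This kept 6787 SMA cells (median 6109 UMIs) and 8918 Con cells (median 6229 UMIs), which held 45630633 and 59380849 UMIs. Smn1 stood at 52.0 CPM (a gene's UMIs scaled to 1000000 UMIs of the pooled cells) in the library labelled SMA and 51.2 in that labelled Con. Its log2 ratio was 0.02 (-0.06 to 0.10), so its level did not set the libraries apart and did not check the labels, and every direction below rests on the labels alone. Xist stood at 1.65 and 625 CPM, so the sex of the pooled animals differed between the libraries and cannot be told apart from the group.

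Cells were clustered again and each cluster was named from marker genes, with "-like" added because the names were rebuilt from the counts. Of the classes, 11 had at least 50 cells in each library and were compared. They were astrocyte-like (1253 SMA and 1529 Con cells), oligodendrocyte precursor (OPC)-like (2068 and 1788), committed precursor (COP)-like (272 and 619), oligodendrocyte-like (307 and 693), Schwann-like (92 and 211), microglia-like (1012 and 820), endothelial-like (325 and 441), mural-like (92 and 261), fibroblast-like (63 and 600), ependymal-like (637 and 297) and erythroid-like (422 and 1003). Macrophage-, monocyte- and neuron-like cells were too few to compare. Haemoglobin-rich erythroid-like cells served as the background of free RNA, and whether they express any of these genes themselves was not tested. Of 51 gene and class entries with at least 50 UMIs outside them, 46 lay above the erythroid-like level in both libraries with intervals that did not touch, and 50 lay above the level of the 2 largest erythroid-like clusters. Erythroid-like cells were deeper (median 9688 UMIs in SMA and 9795 in Con) than oligodendrocyte-like cells (3235 and 2007) and Con fibroblast-like cells (3481). Free RNA may weigh more in shallower cells, so the background there may be understated, which was not tested.

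In GRCm38 with GENCODE M21, the Id genes lay on 4 chromosomes. Id1 (ENSMUSG00000042745) was at chromosome 2, 152736251 to 152737410, plus strand, and Id2 (ENSMUSG00000020644) at chromosome 12, 25093799 to 25097140, minus strand. Id3 (ENSMUSG00000007872) was at chromosome 4, 136143497 to 136145755, plus strand, and Id4 (ENSMUSG00000021379) at chromosome 13, 48261228 to 48266026, plus strand. The ligand genes were longer. Bmp4 (ENSMUSG00000021835) was at chromosome 14, 46383520 to 46390669, minus strand, Bmp5 (ENSMUSG00000032179) at chromosome 9, 75775364 to 75900310, plus strand, and Bmp6 (ENSMUSG00000039004) at chromosome 13, 38345107 to 38500302, plus strand. Bmp7 (ENSMUSG00000008999) was at chromosome 2, 172868012 to 172940321, minus strand, and Nog (ENSMUSG00000048616) at chromosome 11, 89300638 to 89302332, minus strand. All 9 are annotated as protein-coding.

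Stretches just upstream of RefSeq starts (GRCm38.p6) are shown, for Bmp4, whose highest class stood far above the rest, and for Id2 and Id4, which led in astrocyte- and ependymal-like cells. The base of the Id3 window farthest from the start lies within an annotated exon, and the window is not shown. Capitals mark GGCGCC, a GC-rich element bound by BMP SMADs, and GTCT (read on both strands, as GTCT or AGAC), the core of the element bound by SMAD4; the motifs do not overlap here. The Bmp4 and Id4 stretches are the 250 bases before the start, at chr14:46390670-46390919 (minus strand) and chr13:48260866-48261115 (plus strand), and both lie outside annotated exons. The Id2 stretch, chr12:25096254-25096342 (minus strand), is the 89 bases farthest from the start that lie in no annotated exon, within an intron of a longer Id2 transcript.
Bmp4: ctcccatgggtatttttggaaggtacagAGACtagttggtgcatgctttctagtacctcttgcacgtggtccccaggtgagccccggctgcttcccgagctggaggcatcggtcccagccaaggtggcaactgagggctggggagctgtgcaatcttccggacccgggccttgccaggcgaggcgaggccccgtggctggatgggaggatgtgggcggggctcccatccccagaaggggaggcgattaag
Id2: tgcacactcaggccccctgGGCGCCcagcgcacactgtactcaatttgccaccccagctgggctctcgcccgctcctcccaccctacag
Id4: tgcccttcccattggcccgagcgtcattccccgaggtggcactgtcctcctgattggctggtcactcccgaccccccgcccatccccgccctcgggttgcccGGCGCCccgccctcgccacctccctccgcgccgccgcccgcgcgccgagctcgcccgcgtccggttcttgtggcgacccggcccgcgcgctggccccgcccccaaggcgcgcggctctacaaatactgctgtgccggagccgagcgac
GGCGCC was found once each in the Id2 and Id4 stretches and not in the Bmp4 stretch, which held GTCT once. Among 27025 RefSeq promoters, GGCGCC was in 9.54% of 250-base windows and in 2.69% of 89-base windows placed as in Id2, and GTCT was in 83.0% of 250-base windows. These are matches of letters only.

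**Figure D1:**
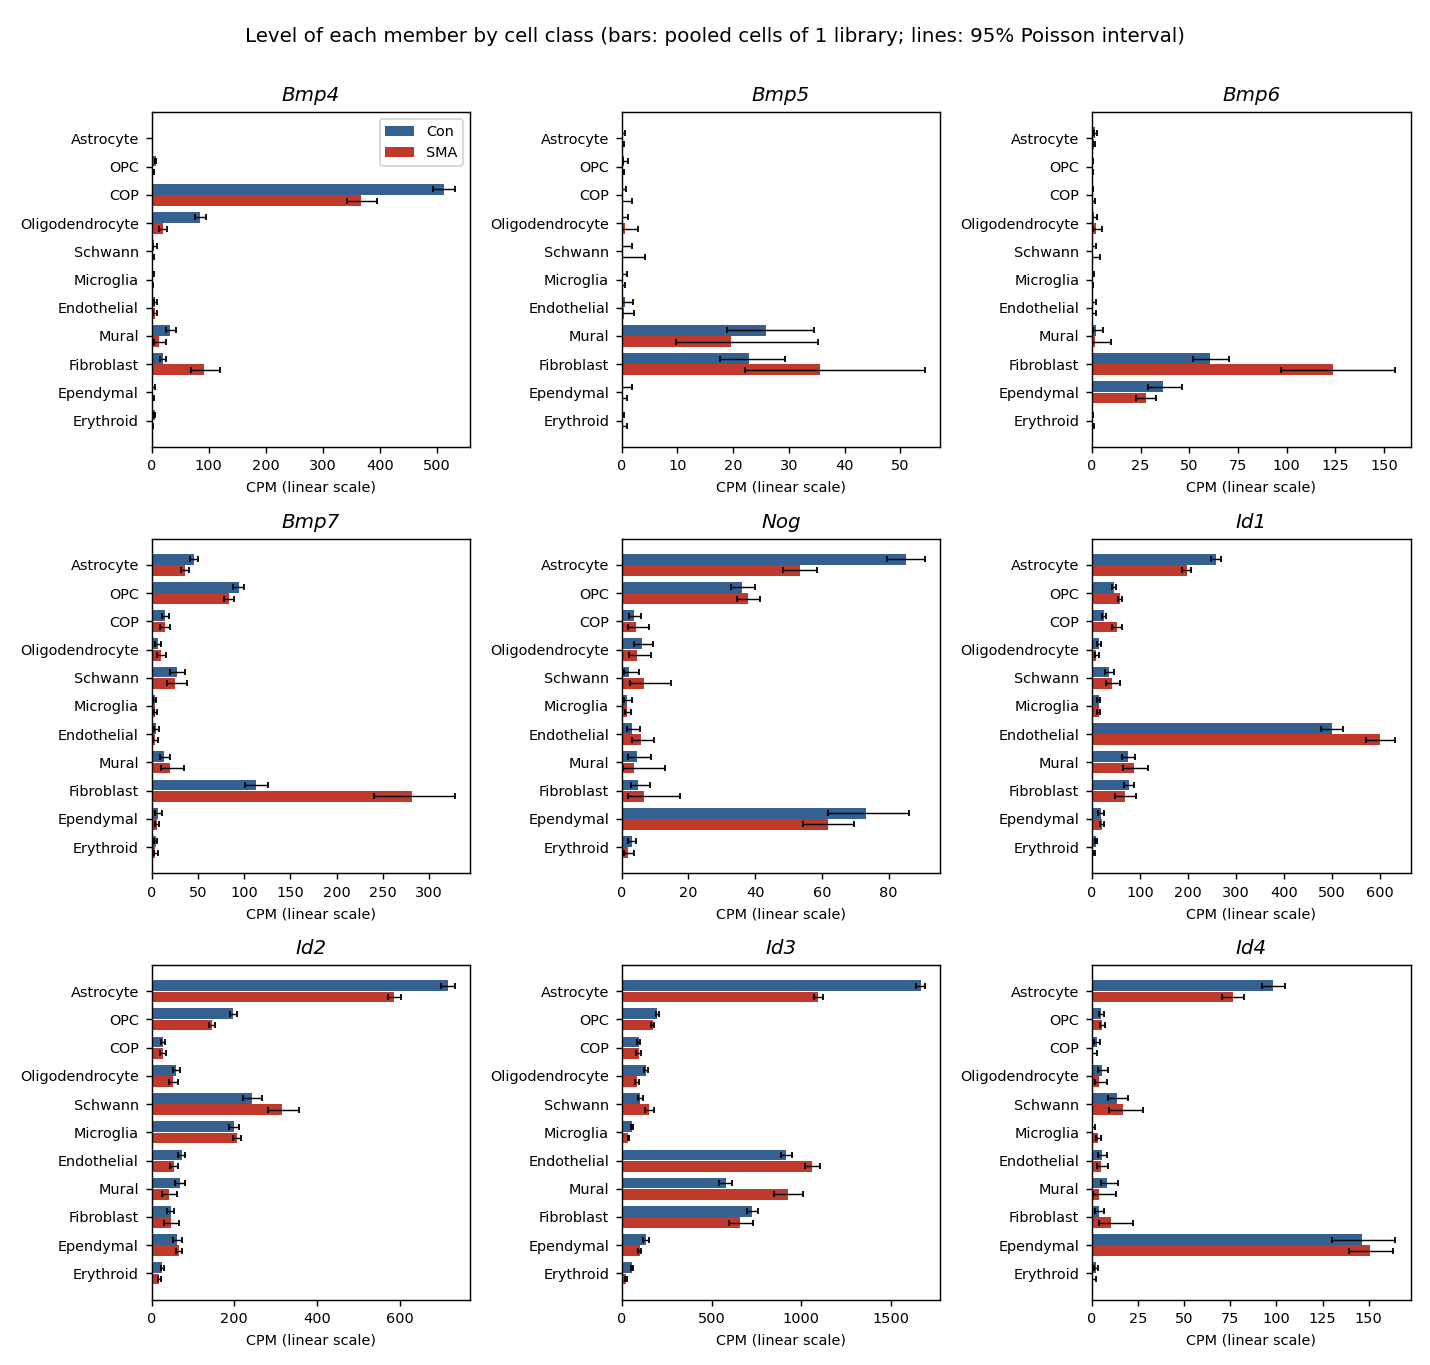
Level of each of the 9 genes in CPM (horizontal, linear from 0) in the 11 compared cell classes (vertical), for the Con (blue) and SMA (red) libraries. Bars are the pooled cells of 1 library and lines 95% Poisson intervals. Bmp4 stood far highest in COP-like cells (512 and 368 CPM), and Id3 was highest in astrocyte-like cells (1664 and 1095 CPM), close to endothelial-like cells in SMA (1061 CPM).

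The ligands shared the fibroblast-like class, and their other classes differed in part. Bmp4 was a COP-like gene. It stood at 368 CPM (342 to 394) in SMA COP-like cells and at 512 CPM (492 to 532) in Con ones, with a UMI in 75.0% and 84.8% of the cells. After each cell was thinned to 1000 UMIs these shares were 29.0% (23.7 to 34.8) and 36.8% (33.0 to 40.8), against 0.238% and 0.20% of erythroid-like cells. The next classes in Con were oligodendrocyte-like (85.6 CPM), mural-like (32.6) and fibroblast-like cells (20.1), and in SMA fibroblast-like (91.6), oligodendrocyte-like (19.3) and mural-like cells (12.5). The ranges that the 2 libraries spanned for fibroblast-, oligodendrocyte- and mural-like cells overlapped from one class to the next, so these classes have no settled order. Astrocyte-like cells, the highest class for Id2 and Id3, held 4 and 8 Bmp4 UMIs in all.

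Bmp5, Bmp6 and Bmp7 shared the fibroblast-like class, whose larger cluster in SMA was led by Slc13a4, Col13a1 and Aldh1a2. Bmp5 was found at any depth only in fibroblast-like cells (35.6 CPM in SMA and 22.9 in Con) and mural-like cells (19.7 and 25.9), whose ranges over the 2 libraries overlapped. All other classes together gave at most 5 Bmp5 UMIs in a class and library. Bmp6 was highest in fibroblast-like cells (124 and 60.5 CPM) and second in ependymal-like cells (27.6 and 36.6 CPM), which line the central canal. COP- and Schwann-like cells held 0 Bmp6 UMIs, which for SMA Schwann-like cells allows up to 3.36 CPM.

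Bmp7 had the widest reach of the ligands. It was at 282 and 113 CPM in fibroblast-like cells, at 83.4 and 94.0 CPM in OPC-like cells, at 36.0 and 45.5 CPM in astrocyte-like cells and at 25.8 and 27.2 CPM in Schwann-like cells. These 4 classes kept that order in both libraries, but the intervals of astrocyte- and Schwann-like cells overlapped in SMA. OPC-like cells gave the most Bmp7 UMIs (1028 and 1039), with a UMI in 37.9% and 41.1% of cells. The ligands of the oligodendrocyte lineage differed between neighbouring classes: in Con, OPC-like cells had 94.0 CPM of Bmp7 and 6.88 CPM of Bmp4, and COP-like cells had 14.8 and 512 CPM.

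Nog was highest among the compared classes in astrocyte-, ependymal- and OPC-like cells. Its levels were 53.4 CPM (SMA) and 85.1 CPM (Con) in astrocyte-like cells, 61.7 and 73.2 CPM in ependymal-like cells and 37.8 and 36.1 CPM in OPC-like cells. Astrocyte-like cells led in Con and ependymal-like cells in SMA, and the ranges of these 2 classes over the libraries overlapped. Every other compared class was at or below 6.79 CPM. Of the classes too small to compare, neuron-like cells gave 30.7 CPM in SMA (15.9 to 53.6, 12 UMIs) and 3.79 CPM in Con (1 UMI), monocyte-like cells 34.0 CPM in SMA (3 UMIs) and macrophage-like cells 15.6 CPM in Con (10 UMIs). In COP-like cells, where Bmp4 was highest, Nog was at 4.28 and 3.71 CPM.

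The Id genes divided the classes among themselves. Id1 led in endothelial-like cells (600 CPM in SMA, 499 in Con), followed by astrocyte-like cells (197 and 258). Id2 led in astrocyte-like cells (587 and 716), followed by Schwann-like (316 and 243), microglia-like (206 and 199) and OPC-like cells (146 and 197). The order of these 4 classes for Id2 was the same in both libraries, but microglia- and OPC-like cells did not differ beyond counting error in Con. Id3 led in astrocyte-like cells (1095 and 1664), then endothelial-like (1061 and 916, overlapping in counting error in SMA), with mural-like (926 and 578) and fibroblast-like cells (660 and 728) next. Id4 was led by ependymal-like cells (151 and 146), ahead of astrocyte-like cells (76.4 and 98.3), and no other compared class was above 16.8 CPM. The few neuron-like cells had Id4 at 30.7 and 22.8 CPM, from 12 and 6 UMIs.

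Shares of the 4 Id genes in a class's Id UMIs set some classes apart, and others had shares near those of the erythroid-like background. Each UMI stands for 1 captured 3′ end, so these shares are not scaled by gene length, and capture may differ between genes. Id3 gave most Id UMIs in mural-like (87.5% in SMA, 79.2% in Con), fibroblast-like (84.2% and 85.2%), endothelial-like (61.7% and 61.4%) and astrocyte-like cells (56.0% and 60.8%). It also gave most in COP-like (54.5% and 63.3%) and oligodendrocyte-like cells (55.8% and 63.3%), and in the erythroid-like background (50.3% and 61.6%). Id2 gave most in microglia-like (79.3% and 74.0%) and Schwann-like cells (59.9% and 61.3%). Id4 had the largest share in ependymal-like cells (44.8% and 40.4%). In Con its interval (36.8 to 44.1) overlapped that of Id3 (37.3%, 33.7 to 41.0). In OPC-like cells Id2 and Id3 were nearly equal in Con (44.2% each), and in SMA Id2 was at 38.2% (36.9 to 39.7) and Id3 at 45.0% (43.6 to 46.5). Id1 was 29.8% (25.1 to 34.7) of Id UMIs in SMA COP-like cells and 17.0% (14.4 to 19.8) in Con ones.

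**Figure D2:**
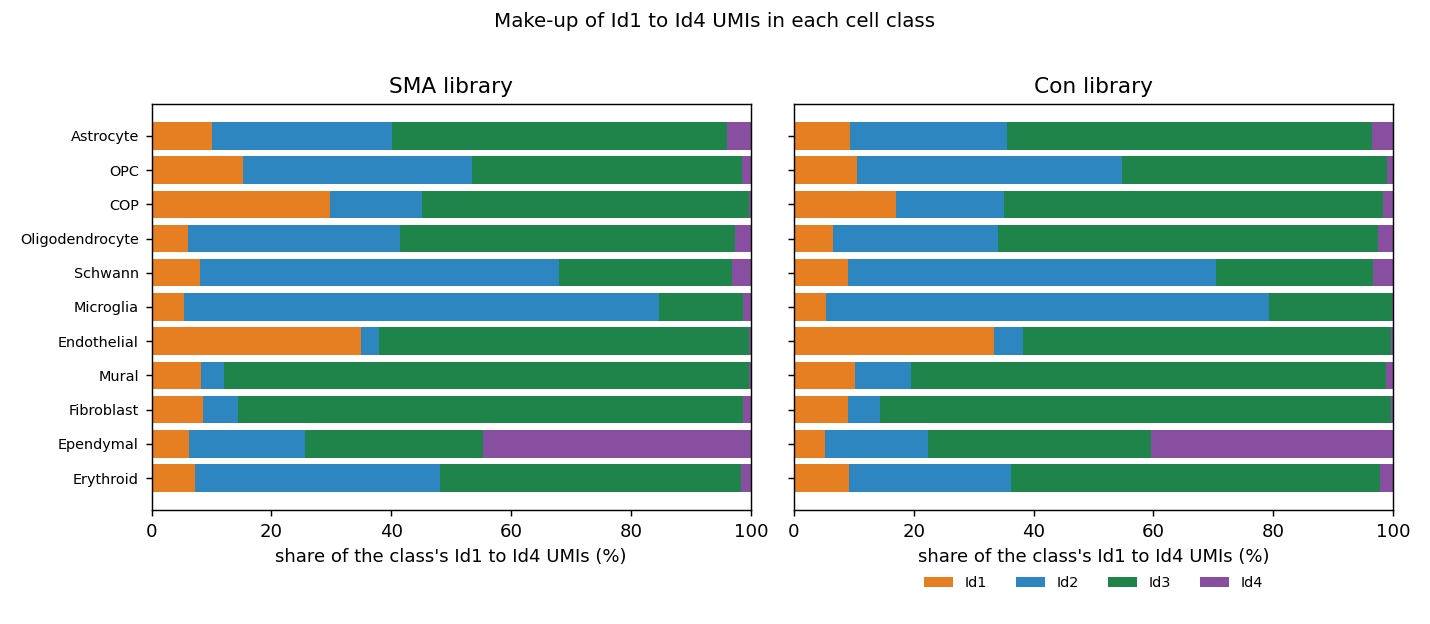
Share of Id1, Id2, Id3 and Id4 (horizontal, % of the class's Id UMIs) in each compared class, for the SMA library (left) and the Con library (right). Id2 fills most of the microglia-like bar (79.3% and 74.0%), Id4 the largest part of the ependymal-like bar (44.8% and 40.4%), and Id1 34.9% and 33.4% of the endothelial-like bar.

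Over the 11 classes, Id1 and Id3 varied together (Pearson r of log2(CPM + 10) 0.90 in Con and 0.88 in SMA), as did Nog and Id4 (0.86 and 0.84). Bmp4 and Id2 ran the other way (-0.55 and -0.52). These are descriptions over 11 classes that share 1 library and 1 background. Among 11834 genes with at least 200 UMIs in Con, those most like Bmp4 were Gm15222 (r 0.97 in Con, 0.95 in SMA), Slc5a7 (0.95 and 0.79) and Fcor (0.95 and 0.75). Those most like Id3 were Snai2 (0.94 and 0.76), Mtmr11 (0.94 and 0.86) and Fat4 (0.93 and 0.69), and Mtmr11 was also among the 3 most like Id1, with Pdgfd and Slc25a20. For Id2 they were Tmem176a (0.89 and 0.82), Azin1 and Adgrg1, and for Id4 Pipox (0.99 and 0.92), Ppil6 and 4932438H23Rik. Nog was nearest to Rnf182 (1.00 and 0.97), Arhgef4 and Hoxb5. Bmp5 was nearest to Cd248, Lamc3 and Pla1a, Bmp6 to C1qtnf3, Lbp and Prelp, and Bmp7 to Ugdh, Cgref1 and Has2. The likeness of Bmp7 did not carry over to SMA, where r was 0.47, 0.38 and 0.27.

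Some pairs of Id genes met in the same astrocyte-like cells. In Con astrocyte-like cells thinned to 1000 UMIs, 77.4% of cells with an Id1 UMI also had an Id3 UMI, against 53.0% of cells without Id1. In SMA these shares were 63.1% and 43.9%. The count of cells with both was 1.35 times that expected if the genes were drawn independently, in each library. For Id1 and Id4 the same ratio was higher, at 1.48 in Con (34 cells with both) and 1.77 in SMA (21 cells). It was 1.29 and 1.12 for Id1 and Id2, and 1.20 and 1.21 for Id3 and Id4. For Id2 and Id3 it was 1.11 in Con and 1.08 in SMA, and for Id2 and Id4 it was 1.14 and 0.96. Endothelial-like cells had both Id1 and Id3 in 96 of 441 Con cells (ratio 1.12) and in 83 of 325 SMA cells (1.21). In OPC-like cells the ratio for Id1 and Id3 was 1.58 in Con (19 cells with both) and 0.98 in SMA (16 cells). For Id2 and Id3 it was 1.07 (52 cells) and 1.21 (49 cells) there. In the other classes the counts were small and the ratios uneven.

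Between the libraries, members were counted as called where the levels differed at least 1.5-fold (0.58 on the log2 scale), with at least 50 UMIs in all and a UMI in each library. Of 56 entries of a member in a class, 6 were called higher and 12 lower in SMA (32.1%), and over all genes in these classes 11.8% of 89743 entries were called, 5.5% higher and 6.34% lower. With the shared SMA barcodes kept, 8 of 56 entries were called (14.3%), a partly different set that lacks the oligodendrocyte-like class. The median log2 ratio of the 56 entries was -0.15. Ratios of all genes sat near 0, with class medians between -0.11 in erythroid-like cells and 0.04 in COP- and microglia-like cells.

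**Figure D3:**
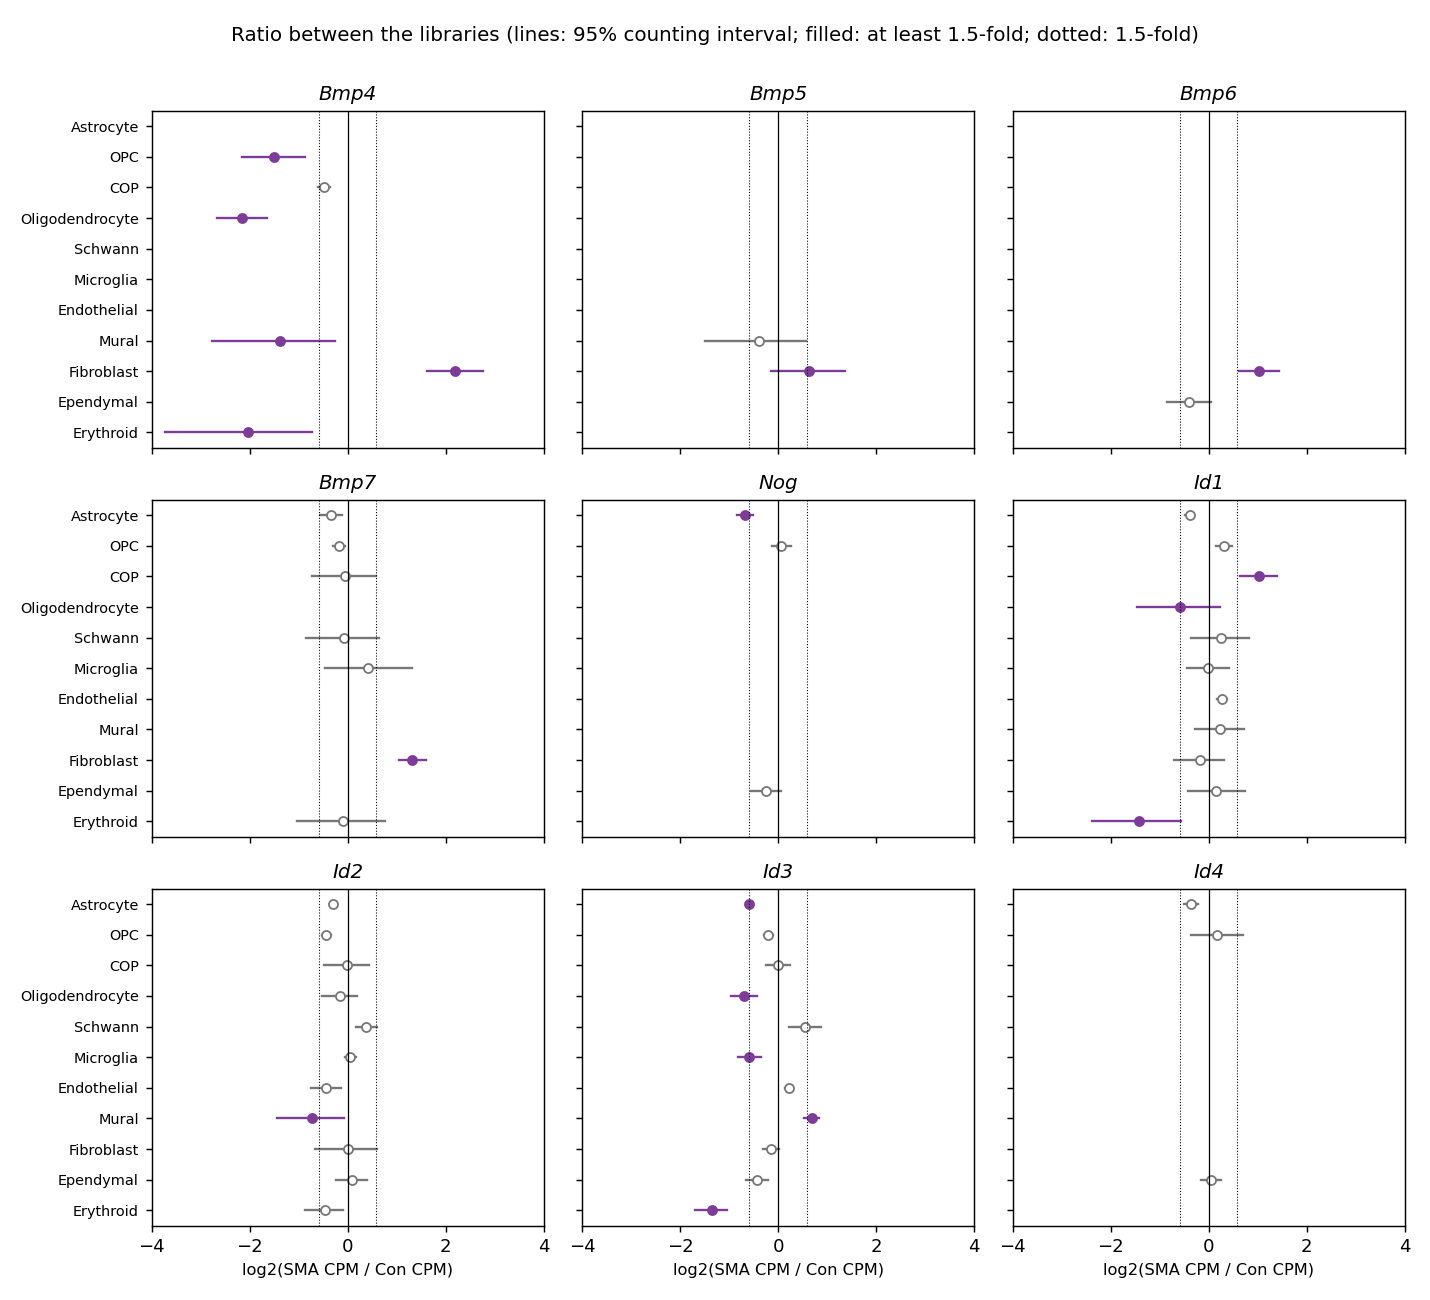
Log2 ratio of the SMA over the Con level (horizontal) for each of the 9 genes in each class (vertical) with at least 50 UMIs. Points are ratios, lines 95% counting intervals, filled points are at least 1.5-fold and dotted lines mark 1.5-fold. Bmp4 lies left of 0 in 5 of 6 classes and right of 0 in fibroblast-like cells (2.19), and all 4 Id genes lie left of 0 in astrocyte-like cells.

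In astrocyte-like cells every Id gene was lower in SMA. Id3 went from 1664 CPM in Con to 1095 CPM in SMA, a log2 ratio of -0.60 (-0.64 to -0.57). Id1 was at 258 and 197 CPM (-0.39, -0.48 to -0.30), Id2 at 716 and 587 CPM (-0.29, -0.34 to -0.24) and Id4 at 98.3 and 76.4 CPM (-0.37, -0.51 to -0.22). All of these intervals lay below the median gene of the class (-0.06). Nog was lower as well, at 85.1 CPM in Con and 53.4 CPM in SMA (-0.67, -0.84 to -0.51), and Bmp7 was at 45.5 and 36.0 CPM (-0.34). Id3 and Nog were called, 2 of 6 members tested, where 6.4% of all genes were called, 2.38% higher and 4.03% lower.

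After thinning to 1000 UMIs, an Id3 UMI was found in 46.7% (43.9 to 49.5) of SMA and 57.3% (54.8 to 59.8) of Con astrocyte-like cells, against 1.67% and 5.91% of erythroid-like cells. Id2 was found in 38.8% and 44.3%, and Id1 in 14.3% and 17.4%. The unthinned shares for Id3 were 81.2% and 88.7%. Median depth was close in the class, at 5943 and 6078 UMIs per cell, and haemoglobin made up 1434 and 7933 CPM, a difference whose part in these ratios was not tested. The 11 oligodendrocyte markers summed to 672 CPM in SMA and 1007 in Con, with none at 0. The 11 astrocyte markers summed to 11874 and 11553 CPM and the 10 microglia markers to 534 and 483 CPM. Their part was not tested.

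Other genes of the pathway were read from a list of 41. In astrocyte-like cells, 4 of the 29 with enough UMIs were called, all lower in SMA, and the median of the list was -0.14. SMAD-induced feedback and target genes made up 3 of them, of 7 in that list, whose summed level was 136 CPM in SMA and 126 in Con. Atoh8, a helix-loop-helix factor induced by BMP signals, was at 8.60 CPM in Con and 2.22 in SMA (-1.95, -2.77 to -1.21). Smad6, the inhibitory SMAD of the BMP branch, was at 5.28 and 1.73 CPM (-1.61, -2.57 to -0.74). Msx2, a homeobox target, was at 10.9 and 6.80 CPM (-0.68, -1.17 to -0.20), and the antagonist Fst was at 3.32 and 2.10 CPM (-0.66, -1.59 to 0.22). The other 4 of that list were not called. Bambi, a decoy receptor and BMP target, ran the other way, at 57.7 CPM in Con and 84.3 in SMA (0.55, 0.39 to 0.71). Smad7 was at 21.6 and 18.8 CPM, Msx1 at 13.3 and 13.5 CPM and Smurf1 at 8.90 CPM in both. The type I receptor Bmpr1a was at 89.8 and 64.7 CPM, and the type II receptor Bmpr2 at 33.3 and 35.0 CPM. The co-receptor Rgma was at 208 and 173 CPM, and Smad1, which carries the BMP signal to the nucleus, at 31.5 and 24.8 CPM (-0.34, -0.60 to -0.08). Atoh8 and Smad6 rested on 18 and 14 SMA UMIs.

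The astrocyte-like class held 4 clusters, and Id3 was lower in SMA in each. It was highest in the cluster led by Gfap and Cidea, at 2160 CPM in SMA and 3119 in Con (-0.53, -0.59 to -0.47). In the largest cluster, led by Cldn10 and Itih3, it was at 846 and 1127 CPM (-0.41, -0.47 to -0.36), in that led by Pbk and Ckap2, cell-cycle genes, at 974 and 1355 CPM (-0.48), and in that led by Lrtm2 and Foxb1 at 519 and 851 CPM (-0.71). Id2 was lower in all 4 as well, by 0.16 to 0.36. The other Id genes were less even. Id1 was lower in 3 clusters and at 255 and 229 CPM (0.15, -0.08 to 0.39) in the Pbk cluster, and Id4 was lower in the Gfap cluster (-0.26) and the Pbk cluster (-0.80) and at -0.01 and 0.03 in the other 2.

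Gfap-cluster cells had the highest level of all 4 Id genes and of Nog in both libraries, and they were 15.6% of SMA and 18.9% of Con astrocyte-like cells. With the mix of clusters held fixed, the class ratio of Id3 was -0.47 and that of Id1 -0.24, so Id3 was then below the 1.5-fold line, and it was past it under 7 of 12 other settings in all. Nog was at 104 and 153 CPM in the Gfap cluster (-0.56, -0.83 to -0.30) and at 39.1 and 80.9 CPM in the Pbk cluster (-1.05, -1.58 to -0.54). Its ratio in the largest cluster was -0.44 (-0.69 to -0.18).

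**Figure D4:**
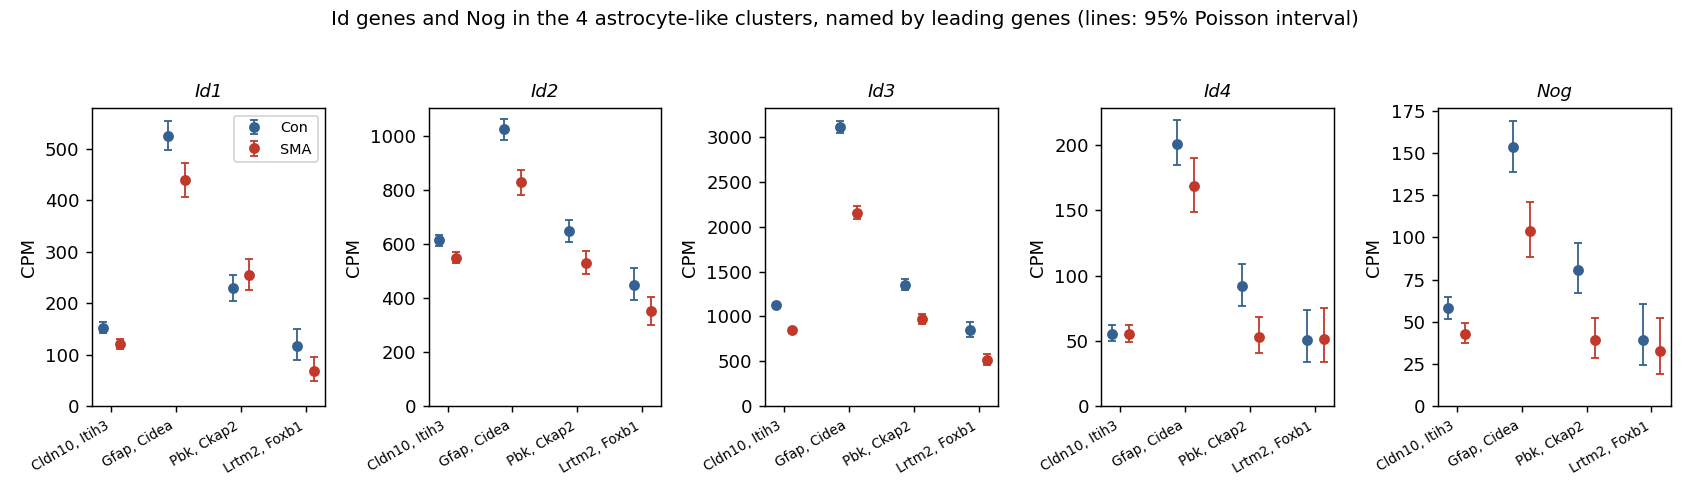
Level in CPM (vertical, linear from 0) of Id1, Id2, Id3, Id4 and Nog in the 4 astrocyte-like clusters, named by leading genes, for Con (blue) and SMA (red). Points are pooled cells of 1 library and lines 95% Poisson intervals. Id3 is lower in SMA in all 4 clusters, and the Gfap, Cidea cluster is highest for each gene.

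Along the oligodendrocyte lineage the genes differed from one another. Bmp4 was called lower in oligodendrocyte- and OPC-like cells. In COP-like cells, where it was highest, its ratio of -0.48 (-0.59 to -0.36) did not reach 1.5-fold. It was at 85.6 CPM in Con and 19.3 CPM in SMA oligodendrocyte-like cells, a ratio of -2.15 (-2.67 to -1.65) that rested on 286 and 38 UMIs in 103 and 19 cells. The class held a pair of clusters. In the one led by Cnksr3, Plch2 and Ddc, Bmp4 was at 123 CPM in Con and 34.0 in SMA (-1.85, -2.40 to -1.35). In the one led by Mog, Mobp and Ermn, genes of mature myelin, it was at 20.5 and 2.21 CPM, from 25 and 2 UMIs. When cells with up to 6000 genes were let in, the ratio of the class was -0.59. Median depth in this class was unequal, at 3235 UMIs in SMA and 2007 in Con. Marker lists moved with Bmp4. The 11 COP markers summed to 8259 CPM in SMA and 11473 in Con oligodendrocyte-like cells and to 10148 and 12694 CPM in COP-like cells, with none at 0. In COP-like cells the 11 oligodendrocyte markers summed to 5945 and 8840 CPM and the 10 microglia markers to 179 and 83.9 CPM, also with none at 0. In oligodendrocyte-like cells the 11 oligodendrocyte markers summed to 51280 and 39896 CPM and the 11 Schwann markers to 46.3 and 479 CPM, with 4 and 1 at 0. Their part in the Bmp4 and Id1 ratios was not tested.

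Bmp4 in OPC-like cells was at 6.88 CPM in Con and 2.43 CPM in SMA (-1.50, -2.16 to -0.87), from 76 and 30 UMIs, of which the top 5 cells held 29 and 19. These levels overlapped those of the whole erythroid-like class (5.14 and 1.25 CPM), but lay above those of its 2 largest clusters (0.60 and 0.28 CPM). Of these UMIs, 36 in Con and 14 in SMA came from the cluster led by Draxin, Dll1 and Egfr, where Bmp4 was at 45.6 CPM in Con and 18.1 in SMA (-1.34, -2.34 to -0.41). That cluster also had the highest Id3 of any cluster named OPC-like, at 693 and 490 CPM (-0.50, -0.69 to -0.31). Its name rested on 5 detected OPC markers and was not stable. A cluster with the same leading genes was named astrocyte-like at resolution 0.5 and at the 6000-gene limit, and was unnamed at the 20% mitochondrial limit. Over the OPC-like class the 11 oligodendrocyte markers summed to 805 CPM in SMA and 1303 in Con, and the 11 COP markers to 1211 and 1466 CPM. The 11 astrocyte markers ran the other way, at 1008 and 921 CPM. Their part in the Bmp4 ratio was not tested.

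Neither Id1 nor Id2 was called in OPC-like cells, and their ratios had opposite signs. In that class Id1 was at 58.2 CPM in SMA and 46.8 in Con (0.32, 0.15 to 0.48), and Id2 at 146 and 197 CPM (-0.44, -0.53 to -0.35). Id3 was at 172 and 197 CPM (-0.20). Of the 7 members with enough UMIs in OPC-like cells, Bmp4 alone was called, where 4.79% of all genes were, 2.39% higher and 2.4% lower. Within clusters the Id1 ratio was 0.65 (0.36 to 0.94) in the largest, led by Kctd16, 0.70 (0.14 to 1.28) in that led by Cdc6 and 1.09 (0.58 to 1.61) in that led by Cdc25c, and -0.05 and -0.34 in those led by histone genes and by Draxin. Id2 was lower in 5 of the 6 OPC-like clusters, with intervals below 0 in 4, and was at 0.10 (-0.30 to 0.52) in the cluster led by Inka1.

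In COP-like cells Id1 was at 51.4 CPM in SMA and 25.4 in Con, a ratio of 1.02 (0.64 to 1.40), and was the 1 member called of 5, where 8.95% of all genes were called, 5.61% higher and 3.33% lower. Id2 and Id3 had ratios of -0.02 and -0.00 there, and Id2 was above the 2 largest erythroid-like clusters but not above the whole erythroid-like class. The ratio of Id1 was 0.44 when the shared SMA barcodes were kept. Immediate early genes, which cell dissociation can induce, were also higher in this class. In COP-like cells 6 of 9 tested were called higher in SMA, with Egr1 at 133 and 46.2 CPM (1.53) and Fos at 546 and 249 CPM (1.13). In OPC-like cells 4 of 10 were called higher, with Fos at 1412 and 799 CPM (0.82). In oligodendrocyte-like cells 5 of 10 were called higher, while Id1 was called lower. Their part in the Id1 ratios was not tested.

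Among receptors in the lineage, Bmpr1a was at 24.7 CPM in SMA and 13.1 in Con COP-like cells (0.92, 0.37 to 1.46), and Acvr1 was at 10.9 and 6.44 CPM (0.76, -0.07 to 1.58). In OPC-like cells Bmpr1b, another type I receptor, stood at 3.24 CPM in SMA and 1.45 CPM in Con (1.16, 0.30 to 2.10). In oligodendrocyte-like cells, Smad5 was higher in SMA (27.5 and 17.1 CPM, 0.69) and the co-receptor Rgma and the type II receptor Acvr2b were lower (-1.02 and -0.85). Tcf4, the E protein gene with most UMIs, had 594 and 522 CPM in COP-like cells, and in OPC-like cells 474 and 466 CPM. The antagonist Nbl1 was lower in OPC-like cells (16.5 and 24.9 CPM, -0.60).

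Id3 in oligodendrocyte-like cells was at 83.5 CPM in SMA and 135 in Con (-0.69, -0.96 to -0.43), and Id1 at 9.16 and 13.8 CPM (-0.59, -1.46 to 0.23), the latter overlapping the level of the whole erythroid-like class but above that of its 2 largest clusters. Of 4 members tested there, 3 were called, against 14.2% of all genes, 6.59% higher and 7.58% lower. Id3 was lower in SMA at 168 and 322 CPM (-0.94) in the Mog cluster. Cells of the Mog cluster had a median of 1753 UMIs over both libraries, and the part of free RNA at that depth was not tested. The Cnksr3 cluster, at 11.3 and 27.8 CPM, lay below the level of the 2 largest erythroid-like clusters (17.4 and 31.8 CPM), so no difference is read there.

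**Figure D5:**
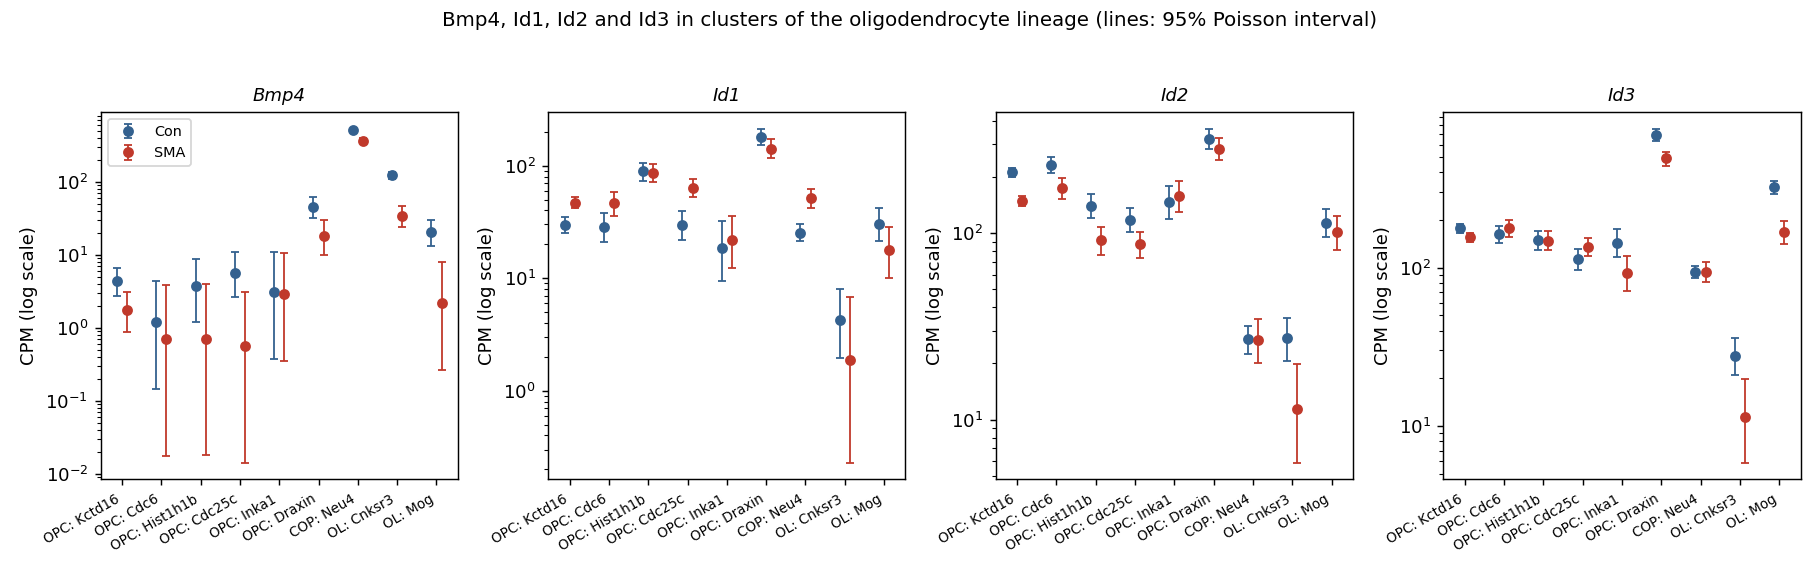
Level in CPM (vertical, log scale) of Bmp4, Id1, Id2 and Id3 in clusters of the oligodendrocyte lineage, named by class and 1 leading gene (OL, oligodendrocyte-like), for Con (blue) and SMA (red). Points are pooled cells of 1 library and lines 95% Poisson intervals. Bmp4 peaks in COP-like cells (512 and 368 CPM), and Id1 lies higher in SMA in the Kctd16, Cdc6, Cdc25c and COP-like clusters.

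In the fibroblast-like class all 4 ligands were called higher in SMA, but here the libraries held different cells. The cluster led by Mmp3, Cilp and Mfap5 had 2 SMA and 432 Con cells, and that led by Slc13a4, Col13a1 and Aldh1a2 had 61 and 168. Median depth was 8890 UMIs in SMA and 3481 in Con, the median mitochondrial share 6.69% and 2.59%, and haemoglobin 445 and 19683 CPM. The 10 fibroblast markers summed to 10147 and 28722 CPM and the 11 astrocyte markers to 2025 and 840.2 CPM, with none at 0. The part of these in the ratios was not tested. Over the class, 37.8% of all genes were called, 15.8% higher and 22% lower, so 4 of 7 members is read against a high background. The pooled ratios were 2.19 (1.62 to 2.76) for Bmp4, 0.64 (-0.15 to 1.37) for Bmp5, 1.03 (0.62 to 1.44) for Bmp6 and 1.32 (1.04 to 1.60) for Bmp7. Within the Slc13a4 cluster they were 0.85 (0.22 to 1.47), -0.34 (-1.14 to 0.41), 0.18 (-0.24 to 0.59) and 0.42 (0.14 to 0.70), so Bmp5 turned direction and Bmp6 and Bmp7 were no longer past 1.5-fold.

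Of the 54 Bmp4 UMIs of SMA fibroblast-like cells, 15 came from the 2 cells of the Mmp3 cluster. Bmp4 in the Slc13a4 cluster was at 67.9 CPM in SMA and 37.7 in Con. Id1 stood lower in that cluster, at 59.2 CPM in SMA and 126 in Con (-1.09, -1.67 to -0.56), and Id3 at 646 and 883 CPM (-0.45, -0.62 to -0.28), while over the whole class they were at -0.18 and -0.14. All 10 immediate early genes were lower in SMA in this class (median -1.89), the opposite of COP-like cells, and 5 of 9 cycling genes were called lower (median -0.74). The part of either list was not tested. Of the pathway list, 2 of 21 genes were called higher and 6 lower. The higher ones were Nbl1 (648 and 322 CPM) and Rgmb (56.0 and 34.8 CPM). The lower ones were Fstl1 (563 and 1119 CPM), the follistatin gene Fst (6.79 and 36.9 CPM), Smad7 (15.3 and 65.9 CPM), Smad4 (15.3 and 28.3 CPM), and the endothelial receptor genes Acvrl1 (3.39 and 18.3 CPM) and Eng (18.7 and 49.1 CPM). The 10 endothelial markers moved the same way, summing to 217 and 976 CPM with 2 and 0 at 0, and their part was not tested. Bmp2, the ligand outside the members with most UMIs, was at 81.5 and 88.5 CPM.

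Id3 was called higher in mural-like cells, and no member was called in endothelial-like cells. Endothelial-like Id1 was at 600 CPM in SMA and 499 in Con (0.27, 0.17 to 0.37), and Id3 at 1061 and 916 CPM (0.21, 0.14 to 0.29). Called there were 0 of 3 members tested (12.3% of all genes, 5.93% higher and 6.39% lower). The clusters of the class differed: Id1 was at 531 and 354 CPM (0.58, 0.46 to 0.71) in the cluster led by Prnd and Slc38a5 and at 999 and 1355 CPM (-0.44, -0.63 to -0.26) in the one led by Gkn3, Sema3g and Bmx. This difference between clusters was not tested. Rgma (3.66 and 16.3 CPM), Twsg1 and Fstl1 were lower and Nbl1 was higher in SMA endothelial-like cells, 4 of 21 pathway genes called, while 8 of 10 cycling genes were called lower and 2 of 10 immediate early genes higher. Haemoglobin was at 11634 CPM in SMA and 34975 in Con. Their part was not tested.

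Mural-like cells had Id3 at 926 CPM in SMA and 578 in Con (0.68, 0.53 to 0.83), Id1 at 87.6 and 74.8 CPM (0.23, -0.28 to 0.71), Id2 at 41.1 and 68.1 CPM (-0.73, -1.44 to -0.07) and Bmp4 at 12.5 and 32.6 CPM (-1.38, -2.76 to -0.25). Id3, Id2 and Bmp4 were called, 3 of 5 members, against 16.8% of all genes, 7.17% higher and 9.66% lower. Bmp4 there rested on 7 SMA UMIs in 4 cells. Of the 518 SMA Id3 UMIs, 62 came from 1 cell and 168 from the top 5 cells, against 138 of 1027 from the top 5 in Con. After thinning to 1000 UMIs, an Id3 UMI was found in 39.1% (29.1 to 49.9) of SMA and 37.1% (31.2 to 43.3) of Con cells, so the shares overlapped. With the shared SMA barcodes kept, Id3 was at 0.50 and Bmp4 at -0.44, both below the 1.5-fold line, and with up to 6000 genes Id2 was at -0.24. Markers of other types moved with Id3 here: the 10 fibroblast markers summed to 1162 CPM in SMA and 767 in Con (3 and 0 at 0), and the 10 microglia markers to 1023 and 622 CPM (none at 0). Their part was not tested. Bambi was at 53.6 and 26.4 CPM (1.02, 0.31 to 1.71). The other pathway genes called were Smad4 (0.67) and Tcf12 (0.59), higher, and Smad5 (-0.63) and Tcf3 (-0.64), lower.

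Schwann-like cells gave Id2 at 316 CPM in SMA and 243 in Con (0.38, 0.16 to 0.60) and Id3 at 152 and 104 CPM (0.55, 0.23 to 0.87), with 0 of 4 members called and 15.5% of all genes called, 7.77% higher and 7.71% lower. All 10 cycling genes were called higher in SMA there, and the BMP antagonist Sostdc1 was at 1334 and 492 CPM (1.44, 1.31 to 1.56), with Fst at 218 and 92.0 CPM (1.25). Haemoglobin was at 405 CPM in SMA and 26440 CPM in Con Schwann-like cells. The part of the cycling genes and of haemoglobin in these ratios was not tested.

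Microglia-like cells, where Id2 was the leading Id gene, had it at 206 and 199 CPM (0.05, -0.06 to 0.17). Id3 was at 36.5 and 54.8 CPM (-0.59, -0.83 to -0.35), the 1 member called of 4 (7.3% of all genes, 5.23% higher and 2.08% lower), against 22.8 and 58.5 CPM in the whole erythroid-like class and 17.4 and 31.8 CPM in its 2 largest clusters. It lay above the latter in both libraries, and not above the former in Con. Nbl1 was lower (18.5 and 28.8 CPM, -0.64), Smad7 was at 161 and 178 CPM, and 9 of 10 cycling genes were called higher in SMA. The part of the last was not tested.

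Ependymal-like cells had no member called of 6, where 8.26% of all genes were, 3.66% higher and 4.6% lower. Id4 was at 151 and 146 CPM (0.04, -0.16 to 0.25), Nog at 61.7 and 73.2 CPM (-0.25, -0.55 to 0.06), Bmp6 at 27.6 and 36.6 CPM (-0.41, -0.85 to 0.04) and Id3 at 99.7 and 135 CPM (-0.44, -0.67 to -0.21). Of the pathway list, Gdf10 (8.47 and 17.8 CPM), Acvr2b (9.92 and 17.8) and Msx1 (19.6 and 32.5) were called lower, 3 of 21.

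The background class was itself unequal. In erythroid-like cells Bmp4 was at 1.25 CPM in SMA and 5.14 in Con (-2.04), Id1 at 3.26 and 8.71 CPM (-1.42) and Id3 at 22.8 and 58.5 CPM (-1.36), 3 of 5 members called, and with the shared SMA barcodes kept they were at -0.23, -0.50 and -0.56, none past 1.5-fold. The background was 16.6% of all genes, 4.01% higher and 12.5% lower. Of the 49 Con UMIs of Bmp4, 42 came from 52 cells of 1 small cluster. Rgma was the 1 pathway gene called of 5 there, at 3.51 CPM in SMA and 7.56 in Con (-1.11). In the largest pair of erythroid-like clusters Bmp4 was at 0.28 and 0.60 CPM and Id3 at 17.4 and 31.8 CPM.

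Over all compared classes, 12 of 197 entries of the 41 pathway genes were called higher and 23 lower (17.8%), with a median of -0.00. By role, the entries called were 1 of 4 for the other ligands, 4 of 21 for type I receptors, 2 of 21 for type II receptors, 5 of 24 for co-receptors and 11 of 33 for the other antagonists. Inside the cell they were 4 of 28 for SMADs, 6 of 33 for feedback targets and 2 of 33 for E proteins. Among the members, Id genes gave 9 of 36 and the 4 ligands 8 of 17, beside 11.8% of all entries. Of the ligand calls, 4 were in fibroblast-like cells, where 37.8% of all genes were called and Bmp5, Bmp6 and Bmp7 were not past 1.5-fold within the Slc13a4 cluster.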

How the data were processed

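Single-cell RNA of spinal cord at postnatal day 4 was measured in 2 libraries, 1 labelled SMA and 1 labelled Con. The authors aligned the 10x 3′ reads to mm10, and the values are raw UMI counts per gene and barcode as deposited, from Cell Ranger 4.0.0 per the file headers; the submitters' processing notes also name Seurat 3.2.2. The members and the gene lists were chosen with earlier results of these data known.

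SMA barcodes also listed for Con were left out. Cells with 200 to 4000 genes and under 10% mitochondrial counts were kept, normalized to 10000 counts and log-transformed, and clustered (2000 variable genes, 30 principal components, 20 neighbours, Louvain resolution 1), leaving out the listed genes, Smn1, Xist, mitochondrial and ribosomal genes. A cluster with a median ribosomal share over 30% (1338 Con and 0 SMA cells) was dropped. Clusters were named from fixed markers when at least 3 were detected, and 142 SMA and 278 Con cells stayed unnamed. No doublet caller was run, so doublets remain beyond the limit on genes. The named genes were the members, every pathway gene called in a class, the pathway gene of each list with most UMIs, and the 3 genes most like each member over classes in Con.

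UMIs were summed per class and library. Levels are counts per 1000000 class counts with Poisson intervals, shares carry Clopper-Pearson intervals, and ratios carry conditional binomial intervals. A count of 0 allows up to 3 UMIs. Intervals cover counting error only, with no spread between animals. The ratio script was tested on simulated data. Python 3.11.15, numpy 2.4.6, scipy 1.17.1, scikit-learn 1.9.0 and igraph 0.11.9 were used. Alternatives were the barcode, mitochondrial and gene limits, resolution 0.5, equal weight per cell, deeper cells, median centring and no minimum of UMIs. A fixed cluster mix, fewer fibroblast-like clusters, fewer erythroid-like clusters and shallow shared Con barcodes left out were added after seeing the data.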

Additional observations from a re-analysis of the deposited data

Results flagged for a closer look

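Bmp4, Id1 and Id3 had SMA over Con ratios of opposite direction in different classes, with counting intervals on either side of 0, and the differences between classes were not tested. Bmp4 had a log2 ratio of -2.15 in oligodendrocyte-like, -1.50 in OPC-like, -1.38 in mural-like and -2.04 in erythroid-like cells, against 2.19 in fibroblast-like cells. These depended on the processing: the fibroblast-like value was 0.85 with the mix of clusters held fixed, the oligodendrocyte-like one -0.59 at the 6000-gene limit, and the mural-like one -0.44 with the shared SMA barcodes kept. Id1 was at 1.02 in COP-like cells and -1.42 in erythroid-like cells. Id3 was at 0.68 in mural-like cells, against -0.60 in astrocyte-like, -0.69 in oligodendrocyte-like, -0.59 in microglia-like and -1.36 in erythroid-like cells. In the whole erythroid-like class, 42 of 49 Con Bmp4 UMIs came from 1 small cluster. The OPC-like Bmp4 and microglia-like Id3 levels lay above those of the 2 largest erythroid-like clusters, and not above those of the whole class in both libraries. All 3 erythroid-like values fell within 1.5-fold when the shared SMA barcodes were kept.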

How the results depend on the processing

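The count of 18 entries past 1.5-fold was 8 when SMA barcodes also listed for Con were kept, and 32 with no minimum of UMIs; under the other settings it ran from 13 to 19. In the former the lower ones numbered 2 in place of 12, and the higher ones 6, but the entries were not the same: 4 of the 12 (Bmp4, Id1 and Id3 in oligodendrocyte-like and Bmp4 in OPC-like cells) had no value there. With the mix of clusters held fixed, 3 were higher and 10 lower. Bmp5 in fibroblast-like cells turned to -0.34 with the mix of clusters fixed and with fibroblast-like clusters present in both libraries only, both settings chosen after seeing the data. The number of genes with the same highest class in both libraries, 7, ran from 5 to 8. Id3 in astrocyte-like cells ran from -0.66 to -0.47 and Nog from -0.73 to -0.54. Bmp4 in oligodendrocyte-like cells was at -0.59 with the 6000-gene limit, Id2 in mural-like cells at -0.24 with that limit, and Id1 in COP-like cells at 0.44 with the shared barcodes kept. The causes were not tested. No paired analysis was possible because each group had 1 library. Low counts limit Bmp4 in mural-like cells (7 SMA UMIs) and Bmp5 in every class.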
